A study of Homo sapiens with 32 samples.

Results

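The genes described here are the 9 members of the MYC and MXD network measured in LNCaP cells: the activators *MYC* and *MYCL*, their shared partner *MAX*, and the 6 antagonists *MXD1*, *MXD3*, *MXD4*, *MXI1*, *MNT*, and *MGA*. They were chosen by gene symbol from 25498 genes, and all 9 of them were among the 16995 genes that had enough counts to be tested. LNCaP is a human prostate cancer line that was derived from a metastasis in a lymph node. Polyadenylated RNA was sequenced from 32 libraries in 8 groups of 4. Cells of the FBS group were labelled as grown in fetal bovine serum. The 7 other groups were labelled as grown in charcoal-stripped serum (CSS), which is depleted of steroid hormones; cells of the CSS group received no growth factor, and the others were exposed to EGF or NRG-1 at 100 ng/mL for 5 minutes, 1 hour, or 4 hours. By the labels' protocol, the stripped medium replaced full medium a day after plating, and ligand followed a day later. EGF is a ligand of EGFR, and NRG-1 is a ligand of HER3 and HER4. Each group held 2 libraries of batch 1 and 2 libraries of batch 2. The labels call the libraries biological replicates of a single cell line without saying whether they came from separate cultures, so the P values measure the spread between these libraries.

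MYC and MYCL are basic helix-loop-helix leucine zipper proteins that bind DNA at E-box sequences as dimers with MAX and recruit histone acetyltransferase complexes. MXD1, MXD3, MXD4, MXI1, and MNT also need MAX, bind the same sequences, and recruit the SIN3 corepressor with its histone deacetylases. MGA is a larger protein that joins MAX within a Polycomb-type repressor complex. The output of the network therefore depends on which proteins occupy MAX, and *MYC* itself is a well-known growth factor-responsive gene with a short-lived mRNA and protein.

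The libraries held 63822654 to 92401724 expected counts, with a median of 77866194. *MYCL* and *MXD3* had the fewest counts of the 9 genes, with at least 319 and 312 per library, and *MYC* had at least 13275. The counts of *MXD3* were not whole numbers in any of the 32 libraries, because the counting program shares ambiguous reads among genes or transcripts, so a part of its count is an estimate. The 10 markers of luminal prostate cells and LNCaP were all detected, with *FOLH1* at 695 TPM or more. Of 11 markers of other cell types, *COL1A2* was listed at 0 TPM in every library, *PTPRC*, *CD3E*, *PECAM1*, *DCN*, *KRT5*, and *TP63* had at most 0.04 TPM, and the summed level of the 11 ranged over 15.5-17.8 TPM in CSS, 21.3-28.9 TPM after 1 hour of EGF, 15.7-20.9 TPM after 1 hour of NRG-1, 28.6-35.4 TPM after 4 hours of EGF, 20.5-26.8 TPM after 4 hours of NRG-1, and 11.0-13.5 TPM in FBS. *ACTA2*, *CD68*, *COL1A1*, and *VWF* made up nearly all of that sum, and its part in the results below was not tested. These are bulk samples, in which fewer cells with a transcript and less transcript per cell cannot be told apart.

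The E-box CACGTG is the sequence through which these proteins bind DNA, so the promoters of the network genes were searched for it. RefSeq promoters (250 bases before and 50 after the start site, GRCh38.p14) were found for 8 of the 9 genes, 13 promoters in all. The gene without an entry was *MYC*, so its promoter was not searched for this or the other motifs below. An E-box was present in 2 of the 13, that of *MXD4* and that of *MNT*, compared with 7.20% of all 34796 promoters of this length. The 250 bases before the start site are shown for *MXD1* and *MNT*, which rose together at 1 hour, and for *MXD4*, the antagonist with the highest level. The E-box is in capitals. It begins 193 bases before the start site of *MNT* and 238 bases before that of *MXD4*.
MXD1 (chr2:69914859-69915108, plus strand): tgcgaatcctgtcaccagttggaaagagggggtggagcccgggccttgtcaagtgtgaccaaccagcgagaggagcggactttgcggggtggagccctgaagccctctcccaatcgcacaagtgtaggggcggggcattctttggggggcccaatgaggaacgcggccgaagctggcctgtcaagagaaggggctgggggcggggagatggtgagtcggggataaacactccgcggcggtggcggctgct
MNT (chr17:2401061-2401310, minus strand): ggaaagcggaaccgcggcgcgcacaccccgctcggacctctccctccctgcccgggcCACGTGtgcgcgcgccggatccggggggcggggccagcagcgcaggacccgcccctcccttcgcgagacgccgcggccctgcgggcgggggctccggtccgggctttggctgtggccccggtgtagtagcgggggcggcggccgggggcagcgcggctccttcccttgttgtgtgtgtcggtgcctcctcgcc
MXD4 (chr4:2262110-2262359, minus strand): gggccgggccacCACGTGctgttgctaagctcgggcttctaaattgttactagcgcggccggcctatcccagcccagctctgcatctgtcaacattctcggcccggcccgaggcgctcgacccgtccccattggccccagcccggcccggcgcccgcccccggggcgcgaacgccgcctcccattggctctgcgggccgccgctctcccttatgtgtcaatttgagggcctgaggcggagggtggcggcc
Motifs of factors that respond to growth factors were searched on both strands of the same 13 promoters. The EGR motif GCGTGGGCG and the CRE motif TGACGTCA had no match there, and they occurred in 0.793% and 1.84% of all promoters. The AP-1 motif TGANTCA matched once, in the *MXD3* promoter, and occurred in 7.73% of all promoters. These matches describe letters in these windows and not binding.

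*MYC* was the most abundant transcript of the network. On the length-normalized TPM scale, its level averaged over the 8 groups was 224 TPM, followed by *MAX* at 72.4 TPM, *MXD4* at 57.5 TPM, *MXI1* at 34.1 TPM, *MNT* at 17.7 TPM, *MXD3* at 11.4 TPM, *MGA* at 10.1 TPM, *MXD1* at 5.10 TPM, and *MYCL* at 3.80 TPM. Between groups, the widest span of mean levels was that of *MXD3* (2.15 on the log2 CPM scale), followed by *MXD1* (1.44), *MNT* (1.27), and *MYC* (1.04). *MAX* (0.23) and *MGA* (0.30) spanned the least. CPM here is the count scaled to a common library size after TMM correction, and it compares libraries but not genes.

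**Figure D1:**
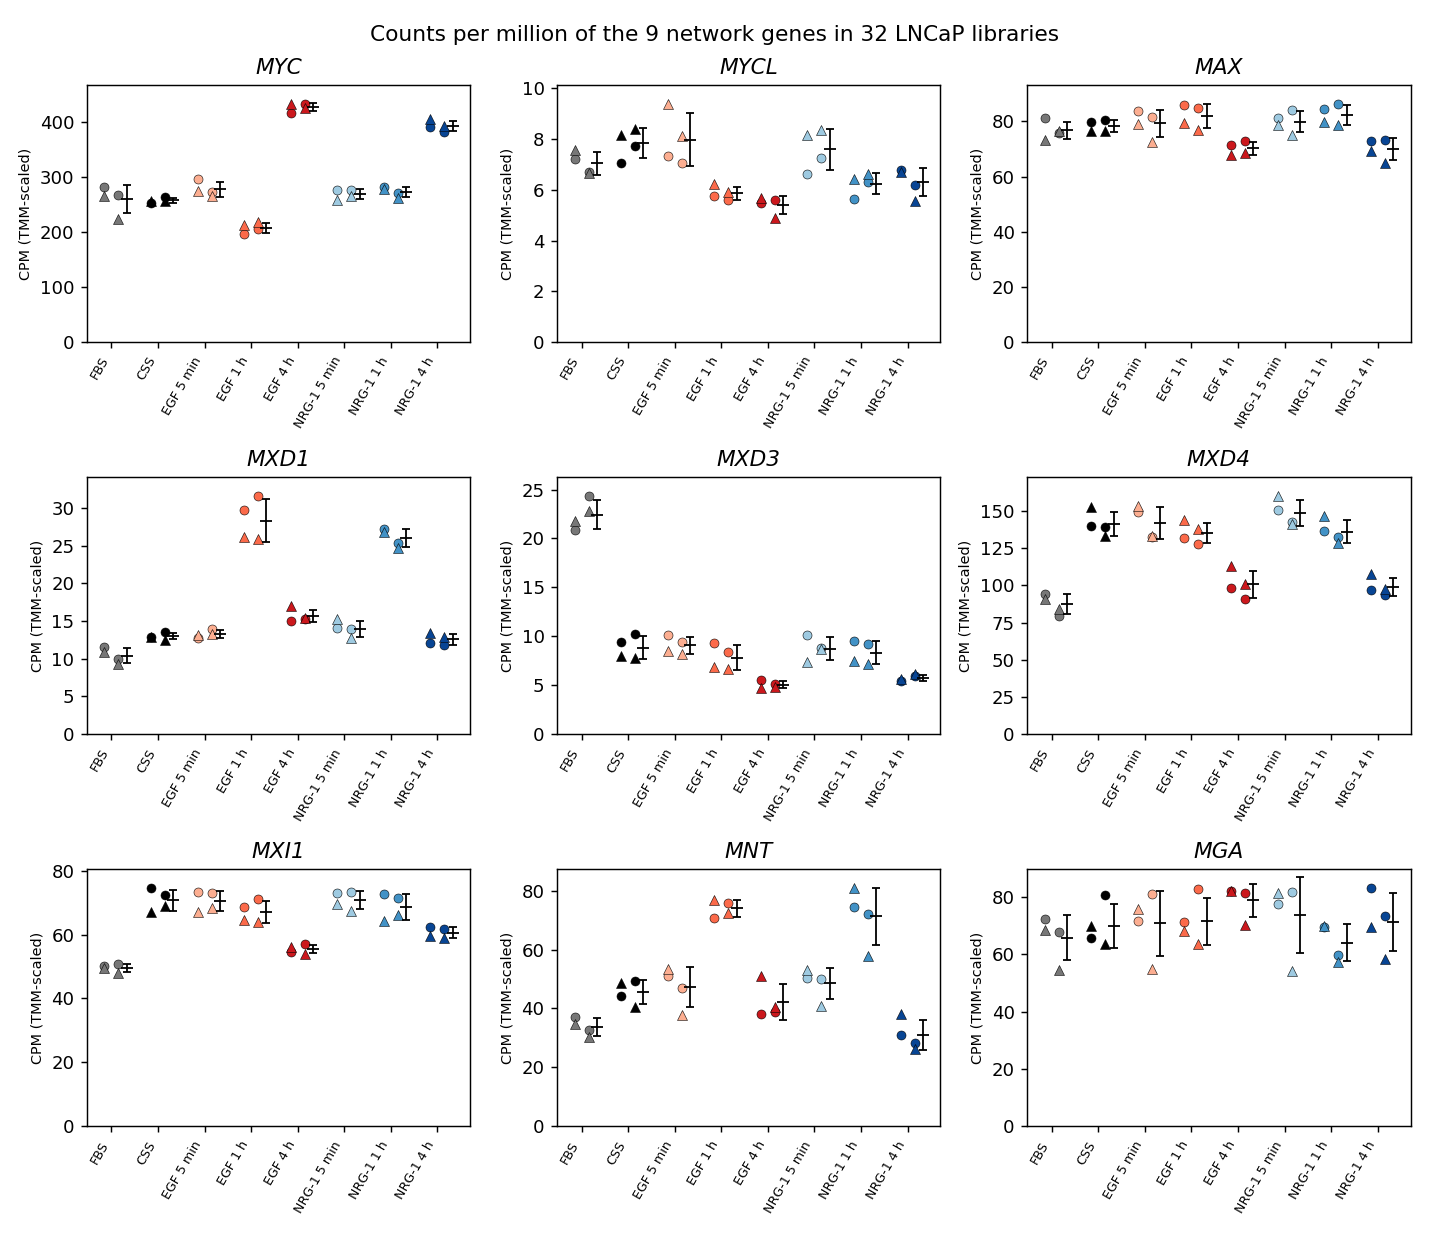
Levels of the 9 network genes in each library (y axis, CPM after TMM scaling; x axis, the 8 groups), with circles for batch 1, triangles for batch 2, and a bar for the mean ± SD of 4 libraries. *MYC* is lowest at 1 hour of EGF (196.3-217.5 CPM) and highest at 4 hours of EGF (417.5-433.1 CPM), *MXD1* and *MNT* peak at 1 hour, and *MXD3* is highest in FBS (20.9-24.3 CPM).

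*MYC* fell and then rose after EGF, whereas after NRG-1 only the later rise passed the test. A gene was called, or passed the test, when its adjusted *P* value from edgeR's quasi-likelihood test was below 0.05, and a DEG also needed a log2 change beyond 1. In CSS, *MYC* stood at 253.7, 264.5, 255.6, and 256.3 CPM (the 2 libraries of batch 1, then the 2 of batch 2). After 1 hour of EGF it stood at 196.3, 205.9, 212.9, and 217.5 CPM. Every EGF library lay below every CSS library, and *MYC* decreased by 0.31 on the log2 scale (SE 0.05, adjusted *P* = 7.70e-05). The fall had the same direction in each batch, at -0.36 in batch 1 (adjusted *P* = 0.000410) and -0.25 in batch 2 (adjusted *P* = 0.320), and it did not pass the test in limma on log2 TPM (-0.27, adjusted *P* = 0.151). After 1 hour of NRG-1, the 4 libraries held 281.4, 271.5, 279.0, and 261.8 CPM, a difference from CSS of 0.09 on the log2 scale (SE 0.05, adjusted *P* = 0.435) with overlapping ranges.

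After 4 hours *MYC* was higher with either ligand. The EGF libraries held 417.5, 432.9, 433.1, and 425.7 CPM, and the NRG-1 libraries held 391.3, 382.2, 405.7, and 393.5 CPM. Neither range overlapped that of CSS. The rise was 1.66-fold for EGF (log2 0.73, SE 0.05, adjusted *P* = 1.72e-12) and 1.53-fold for NRG-1 (log2 0.61, SE 0.05, adjusted *P* = 1.04e-10), and it was called in all 21 alternative settings run for each ligand. Both comparisons share the 4 CSS libraries. From 1 hour to 4 hours *MYC* rose 2.05-fold in the EGF series (log2 1.04, adjusted *P* = 1.05e-15) and 1.44-fold in the NRG-1 series (log2 0.52, adjusted *P* = 2.45e-09). In order of group means, *MYC* was lowest at 1 hour of EGF (208 CPM), did not separate between neighbours from CSS (258 CPM) through FBS, 5 minutes of NRG-1, 1 hour of NRG-1, and 5 minutes of EGF (278 CPM), and was highest at 4 hours of NRG-1 (393 CPM) and of EGF (427 CPM).

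*MYCL*, a paralog of *MYC* with a narrower tissue range, moved the other way from *MYC* at 4 hours. It held 7.06-8.42 CPM in CSS, 5.60-6.21 CPM after 1 hour of EGF, and 4.88-5.69 CPM after 4 hours of EGF. The EGF ranges lay below the CSS range at both times, with log2 changes of -0.42 (SE 0.08, adjusted *P* = 0.000344) and -0.53 (SE 0.08, adjusted *P* = 2.32e-06). After NRG-1 the changes were -0.33 at 1 hour (5.65-6.61 CPM, adjusted *P* = 0.00684) and -0.31 at 4 hours (5.56-6.77 CPM, adjusted *P* = 0.00210). The fall at 1 hour of EGF was not called in batch 2 alone (adjusted *P* = 0.0969), and that at 1 hour of NRG-1 was not called in batch 1 alone (adjusted *P* = 0.0631) or batch 2 alone (adjusted *P* = 0.361). In limma on TPM neither 1-hour fall was called (adjusted *P* from 0.121 to 0.176 for EGF and from 0.0815 to 0.124 for NRG-1), and the fall at 4 hours of NRG-1 was not called in batch 1 alone (-0.19, adjusted *P* = 0.0979). *MYCL* was 3.80 TPM on average, so that *MYC* made up nearly all activator transcript on the length-normalized scale.

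*MAX*, the obligate partner of both sides of the network, changed little. It held 76.5-80.4 CPM in CSS, 67.8-72.8 CPM after 4 hours of EGF, and 64.8-73.3 CPM after 4 hours of NRG-1. The 4-hour libraries of either ligand lay below all CSS libraries, with a log2 change of -0.16 for each (SE 0.04, adjusted *P* = 0.000620 for EGF and 0.000609 for NRG-1). In batch 2 alone the changes were -0.14 and -0.18 and were not called (adjusted *P* = 0.215 and 0.147). The ratio of *MYC* to *MAX* in TPM was 2.69 ± 0.0784 (SD, n = 4) in CSS, 2.09 ± 0.199 after 1 hour of EGF, 2.703 ± 0.106 after 1 hour of NRG-1, 4.91 ± 0.229 after 4 hours of EGF, and 4.55 ± 0.294 after 4 hours of NRG-1.

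At 1 hour the antagonists that moved were *MXD1* and *MNT*, and both rose. MXD1 is known from cells leaving the cycle to differentiate, and MNT is a broadly expressed antagonist present in both cycling and resting cells. With 1 hour of EGF, 4 of the 9 network genes were called (2 higher and 2 lower), against 9.51% of all genes tested (6.00% higher and 3.51% lower). With 1 hour of NRG-1, 3 of the 9 were called (2 higher and 1 lower), against 6.73% of all genes (4.45% higher and 2.28% lower). DEGs made up 1.72% of all genes for EGF and 0.989% for NRG-1. The genes called were the ones whose libraries did not overlap those of CSS, which held for 13.4% of all genes with EGF and 8.79% with NRG-1.

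*MXD1* held 13.0, 13.6, 12.9, and 12.6 CPM in CSS, 29.8, 31.6, 26.2, and 25.9 CPM after 1 hour of EGF, and 27.2, 25.3, 26.8, and 24.7 CPM after 1 hour of NRG-1. All libraries of either ligand at 1 hour lay above every library of CSS and of the other 5 groups. The rise was 2.18-fold for EGF (log2 1.12, SE 0.07, adjusted *P* = 2.50e-13), the 1 DEG among the network genes at that time, and 2.00-fold for NRG-1 (log2 1.00, SE 0.07, adjusted *P* = 5.45e-12), just under the limit for a DEG. At 4 hours *MXD1* had returned to 15.1-16.9 CPM with EGF, still above CSS (log2 0.27, SE 0.07, adjusted *P* = 0.00186), and to 11.8-13.5 CPM with NRG-1, where it did not differ from CSS beyond the spread (log2 -0.05, SE 0.07, adjusted *P* = 0.609). The remaining rise with EGF was not called in batch 1 alone (0.19, adjusted *P* = 0.0526) or in limma on TPM (0.16, adjusted *P* = 0.210).

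*MNT* held 44.3, 49.4, 48.5, and 40.5 CPM in CSS. It held 70.7, 75.8, 77.0, and 72.4 CPM after 1 hour of EGF and 74.5, 72.1, 80.8, and 57.9 CPM after 1 hour of NRG-1. The ranges at 1 hour lay above that of CSS for both ligands, with the last NRG-1 library well below the rest. The library of that number was the lowest for *MNT* in 6 of the 8 groups, CSS among them. In same-numbered pairs NRG-1 was higher than CSS in 4 of 4, by 0.52 to 0.75 on the log2 scale. The rise was 1.62-fold for EGF (log2 0.70, SE 0.12, adjusted *P* = 8.11e-05) and 1.56-fold for NRG-1 (log2 0.64, SE 0.12, adjusted *P* = 0.000377). Within batch 2 alone the rises were of like size (0.75 and 0.64) but were not called (adjusted *P* = 0.171 and 0.417), and that for NRG-1 was not called in limma on TPM (0.54, adjusted *P* = 0.0822).

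*MXD3*, *MXD4*, *MXI1*, and *MGA* did not pass the test at 1 hour with either ligand, with log2 differences from CSS between -0.17 and 0.03 and overlapping ranges in each of the 8 cases.

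**Figure D2:**
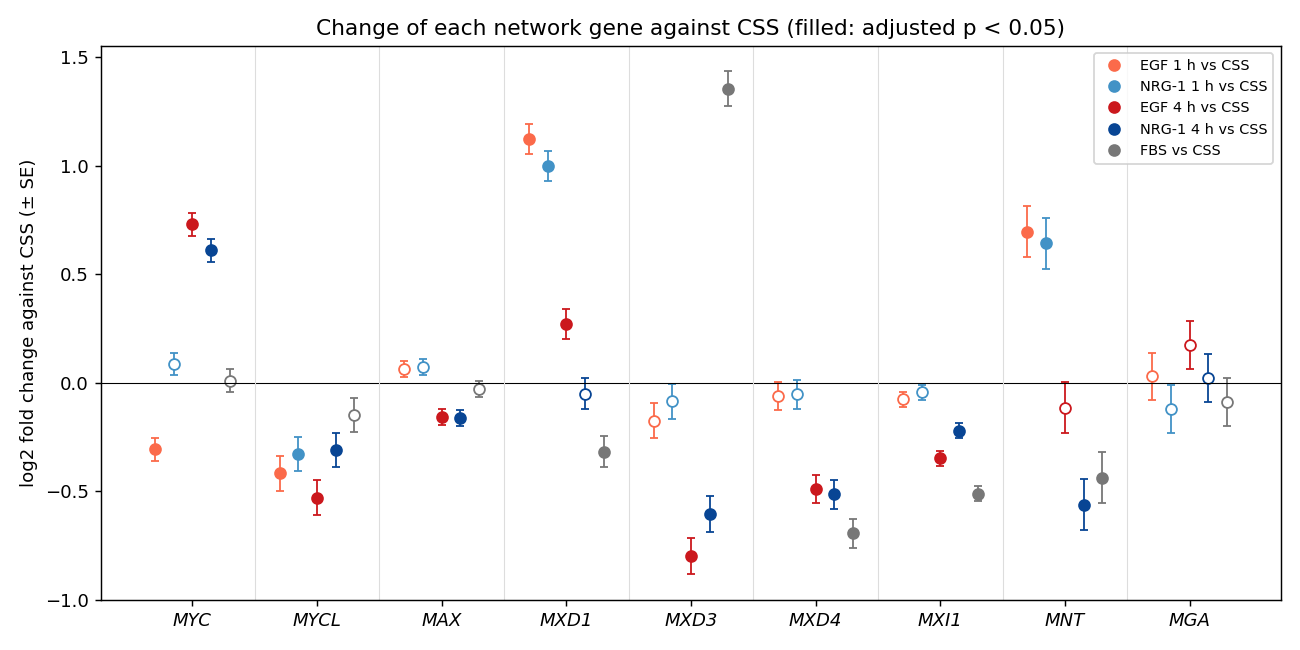
Log2 fold change against CSS (y axis, ± SE) for each network gene (x axis) after 1 hour and 4 hours of EGF or NRG-1 and in FBS, with filled points for an adjusted *P* value below 0.05. *MXD1* (1.12 and 1.00) and *MNT* (0.70 and 0.64) stand above 0 at 1 hour, *MYC* (0.73 and 0.61) stands above 0 at 4 hours while *MXD3*, *MXD4*, and *MXI1* stand below it, and *MXD3* has the highest point in FBS (1.36).

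At 4 hours *MYC* was higher than in CSS with either ligand, and *MXD3*, *MXD4*, and *MXI1* were lower with either. *MNT* was lower with NRG-1, and *MXD1* was higher with EGF. With EGF, 7 of the 9 network genes were called (2 higher and 5 lower), against 49.2% of all genes tested. With NRG-1, 7 of the 9 were called (1 higher and 6 lower), against 42.6% of all genes. Of all genes, 24.6% were higher and 24.6% lower for EGF, and 21.6% were higher and 21.0% lower for NRG-1. None of the 9 was a DEG in either comparison, against 9.56% of all genes for EGF and 7.41% for NRG-1. The 7 called genes were again the ones that did not overlap CSS, against 41.2% of all genes for EGF and 30.8% for NRG-1.

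*MXD3*, which is known from proliferating cells and peaks in S phase, fell the most. It held 9.37, 10.2, 7.97, and 7.74 CPM in CSS and 5.501, 5.13, 4.76, and 4.78 CPM after 4 hours of EGF. All of the EGF libraries were below all of the CSS libraries, and the log2 change was -0.80 (SE 0.08, adjusted *P* = 3.65e-09). With NRG-1 it held 5.38-6.11 CPM, again with no overlap, at a log2 change of -0.61 (SE 0.08, adjusted *P* = 6.96e-07).

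*MXD4*, an antagonist associated with resting and differentiated cells and here the most abundant one, held 132.8-152.7 CPM in CSS, 90.6-113.0 CPM after 4 hours of EGF, and 93.2-107.9 CPM after 4 hours of NRG-1. Neither ligand's range overlapped that of CSS, and the log2 changes were -0.49 (SE 0.07, adjusted *P* = 3.25e-07) and -0.51 (SE 0.07, adjusted *P* = 2.04e-07). *MXI1*, also called MXD2, held 67.1-74.5 CPM in CSS, 54.0-57.0 CPM with EGF, and 58.9-62.4 CPM with NRG-1. Its ranges were likewise separate from CSS, with log2 changes of -0.35 (SE 0.03, adjusted *P* = 1.37e-09) and -0.22 (SE 0.03, adjusted *P* = 5.36e-06). The fall of *MXI1* with NRG-1 was not called in batch 2 alone (-0.19, adjusted *P* = 0.0978).

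*MNT* at 4 hours had fallen from its 1-hour level with both ligands, by 0.81 on the log2 scale for EGF (adjusted *P* = 1.79e-06) and by 1.20 for NRG-1 (adjusted *P* = 2.66e-09). With NRG-1 it ended below CSS, at 31.0, 28.4, 38.1, and 26.2 CPM against 40.5-49.4 CPM (log2 -0.56, SE 0.12, adjusted *P* = 0.000316), a fall that was not called in batch 2 alone (-0.45, adjusted *P* = 0.249). With EGF it ended at 38.3, 39.0, 51.1, and 40.3 CPM, overlapping CSS (log2 -0.11, SE 0.12, adjusted *P* = 0.454). The third EGF library was the high one. In batch 1 alone, *MNT* was called lower than CSS after 4 hours of EGF as well (-0.28, adjusted *P* = 0.00523).

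*MGA* did not pass the test against CSS in any of the 7 groups. It held 63.5-80.6 CPM in CSS and 70.1-82.1 CPM after 4 hours of EGF (log2 0.17, SE 0.11, adjusted *P* = 0.198). Its lowest value in each of the 8 groups was that of the second library of batch 2. With the replicate number as a block, the rise at 4 hours of EGF was called (0.17, adjusted *P* = 0.0470). It was also called with those 8 libraries left out (0.18, adjusted *P* = 0.0487). Leaving them out was chosen after seeing the data, so that call does not count as separate support.

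At 5 minutes no network gene was called in edgeR or DESeq2 for either ligand. Across all genes, 0.00588% were called for EGF and 0% for NRG-1. At an unadjusted *P* value below 0.05, edgeR gave 1 of the 9 for EGF and 0 of the 9 for NRG-1, and DESeq2 gave the same counts. No share of all genes is given at that unadjusted threshold, so these counts have no background to be read against. The gene was *MYC*, which held 296.5, 273.6, 275.6, and 265.2 CPM after 5 minutes of EGF (log2 0.11, SE 0.05, adjusted *P* = 1). These libraries lay just above those of CSS, a separation seen in 0.783% of all genes.

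From 1 hour to 4 hours, 7 of the 9 genes were called in each series, against 44.0% of all genes for EGF (22.5% higher and 21.5% lower) and 37.5% for NRG-1 (19.0% higher and 18.5% lower). *MYC* was the 1 gene that rose in each, and the 6 that fell were *MAX*, *MXD1*, *MXD3*, *MXD4*, *MXI1*, and *MNT* in each. The falls were largest for *MXD1* and *MNT*. *MXD1* dropped by 0.85 on the log2 scale with EGF (adjusted *P* = 3.22e-11) and by 1.05 with NRG-1 (adjusted *P* = 6.60e-13). The other falls ranged from -0.18 to -0.63 on the log2 scale. In batch 2 alone, *MAX*, *MXI1*, and *MNT* were not called with EGF (adjusted *P* = 0.144, 0.0665, and 0.0669). With NRG-1, *MAX*, *MXD3*, and *MXI1* were not called there (adjusted *P* = 0.0725, 0.0595, and 0.327). The fall of *MXI1* with NRG-1 was also not called in limma on TPM (adjusted *P* from 0.0525 to 0.0678).

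The serum comparison had another pattern. Between FBS and CSS, 5 of the 9 network genes were called (1 higher and 4 lower in FBS), against 52.7% of all genes (26.0% higher and 26.8% lower). The number called was thus close to the share of all genes, and what follows describes which genes moved. The ranges of those 5 did not overlap, against 36.3% of all genes, and 1 of them was a DEG, against 8.71% of all genes. *MYC* did not pass: it held 281.4, 267.3, 266.2, and 223.1 CPM in FBS, a range that enclosed that of CSS (log2 0.01, SE 0.05, adjusted *P* = 0.884). *MXD3* was the gene that was higher, at 20.9, 24.3, 21.7, and 22.8 CPM, which put every FBS library above every library of the 7 CSS-based groups. The difference from CSS was 2.56-fold (log2 1.36, SE 0.08, adjusted *P* = 3.11e-14).

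The 4 genes that were lower in FBS were the other MXD genes and *MNT*. *MXD4* held 79.6-94.2 CPM (log2 -0.69, SE 0.07, adjusted *P* = 5.97e-10), and *MXI1* held 47.8-50.9 CPM (log2 -0.51, SE 0.03, adjusted *P* = 5.22e-13). *MXD1* held 9.33-11.6 CPM (log2 -0.32, SE 0.07, adjusted *P* = 0.000410), and *MNT* held 30.3-37.3 CPM (log2 -0.44, SE 0.12, adjusted *P* = 0.00288). The difference of *MNT* was not called in batch 2 alone (-0.45, adjusted *P* = 0.173). In limma on log2(TPM + 1), *MYCL* (-0.27, adjusted *P* = 0.0216) and *MAX* (-0.22, adjusted *P* = 0.0333) were also called lower, on a scale where the median of all genes was -0.16.

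Compared directly with FBS, the 4-hour groups differed most in *MXD3* and *MYC*. For EGF, all 9 genes were called (6 higher and 3 lower), against 62.4% of all genes (31.5% higher and 31.0% lower). For NRG-1, 6 were called (4 higher and 2 lower), against 57.2% of all genes (29.4% higher and 27.8% lower), so that number was close to the share of all genes. *MXD3* was 4.46-fold lower with EGF (log2 -2.16, adjusted *P* = 8.03e-19) and 3.90-fold lower with NRG-1 (log2 -1.96, adjusted *P* = 6.70e-18). *MYC* was 1.65-fold higher with EGF (log2 0.72, adjusted *P* = 1.03e-12) and 1.52-fold higher with NRG-1 (log2 0.60, adjusted *P* = 5.99e-11). The values for *MAX* (-0.13 with either ligand) turned to 0.01 for EGF and -0.03 for NRG-1 in limma on log2(TPM + 1), where neither was called. On that scale the median of all genes was 0.0936 for EGF and 0.0761 for NRG-1. The calls of *MNT* (0.32), *MGA* (0.26), and *MXD4* (0.20) for EGF were lost without the first EGF library of batch 2, with adjusted *P* = 0.134, 0.133, and 0.0542. *MNT* and *MGA* were also not called without the second FBS library of batch 2 (adjusted *P* = 0.0810 and 0.149), and *MGA* was not called without the first EGF library of batch 1 or the second FBS library of batch 1 (adjusted *P* = 0.0538 and 0.0835). For NRG-1, the call of *MXD4* (0.18) was lost without the first NRG-1 library of batch 2 or without the second FBS library of either batch, with adjusted *P* between 0.0735 and 0.0813, and *MYCL* was called lower (-0.22 and -0.20) without the first NRG-1 library of batch 1 or the second FBS library of batch 2.

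The 2 ligands were then compared at the same dose and time. At 5 minutes no network gene was called in edgeR or DESeq2 (0% of all genes called in edgeR). At an unadjusted *P* value below 0.05 either tool gave 0 of the 9, a count given without the share of all genes. At 1 hour 1 of the 9 was called, against 1.06% of all genes. It was *MYC*, whose 4 EGF libraries (196.3-217.5 CPM) lay below the 4 NRG-1 libraries (261.8-281.4 CPM) by 0.39 on the log2 scale (SE 0.05, adjusted *P* = 1.77e-05), and lower in 4 of 4 same-numbered pairs. Within batches the difference was -0.45 (adjusted *P* = 0.000160) and -0.32 (adjusted *P* = 0.911), and it was not called in limma on TPM (-0.29, adjusted *P* = 0.418).

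At 4 hours 1 of the 9 was called between the ligands, against 1.66% of all genes. It was *MXD1*, at 15.1, 15.3, 16.9, and 15.4 CPM with EGF and 12.1, 11.8, 13.5, and 12.9 CPM with NRG-1. The ranges did not overlap, and the difference was 0.32 on the log2 scale (SE 0.07, adjusted *P* = 0.0124). It was not called without the second NRG-1 library of batch 1 (0.29, adjusted *P* = 0.0621) or without the first EGF library of batch 2 (0.27, adjusted *P* = 0.0570). *MNT* (0.45, adjusted *P* = 0.0505) and *MXI1* (-0.13, adjusted *P* = 0.0545) lay just outside the threshold with separate ranges, and both passed with the replicate number as a block (adjusted *P* = 0.000241 and 0.0193). *MYC* was 0.12 higher with EGF in log2 terms (SE 0.05, adjusted *P* = 0.347) and did not pass the test. Its ranges of 417.5-433.1 and 382.2-405.7 CPM did not overlap. The share of all genes with separate ranges is not given for this comparison, so separate ranges alone are not read as a difference here.

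To set the activator against its antagonists, the TPM of *MYC* was divided by the summed TPM of the 6 antagonists in each library. No test was run on this ratio. In CSS it was 1.34, 1.36, 1.33, and 1.46, a mean of 1.37 ± 0.0594 (SD, n = 4). After 1 hour of EGF it was 0.979, 1.01, 1.06, and 1.12 (mean 1.04 ± 0.0609), below every library of the other groups, whereas after 1 hour of NRG-1 it was 1.38 ± 0.0400, within the CSS range.

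After 4 hours the ratio stood at 2.88, 3.05, 2.702, and 2.97 with EGF (mean 2.90 ± 0.149) and at 2.71, 2.73, 2.69, and 2.87 with NRG-1 (mean 2.75 ± 0.0853). These 8 libraries lay above all of the other 24. Against CSS this was 2.12-fold for EGF and 2.01-fold for NRG-1. Both terms moved: *MYC* rose, and the summed antagonists went from 147 ± 14.8 TPM in CSS to 110 ± 9.97 TPM with EGF and 105 ± 13.1 TPM with NRG-1. In FBS the ratio was 1.66 ± 0.111, with summed antagonists of 107 ± 15.8 TPM.

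The make-up of the antagonist pool also differed. In CSS, *MXD4* supplied 45.4% ± 2.01 (SD, n = 4) of antagonist TPM, *MXI1* 26.1% ± 1.45, *MNT* 11.3% ± 0.586, *MXD3* 7.57% ± 0.894, *MGA* 6.91% ± 0.566, and *MXD1* 2.76% ± 0.0747. At 1 hour the shares of *MNT* and *MXD1* were 17.2% ± 0.560 and 5.65% ± 0.483 after EGF, and 16.7% ± 1.42 and 5.23% ± 0.142 after NRG-1. In FBS *MXD3* supplied 23.6% ± 2.05. At 4 hours it supplied 5.14% ± 0.573 with EGF and 6.00% ± 0.477 with NRG-1, of pools with summed TPM close to that in FBS.

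**Figure D3:**
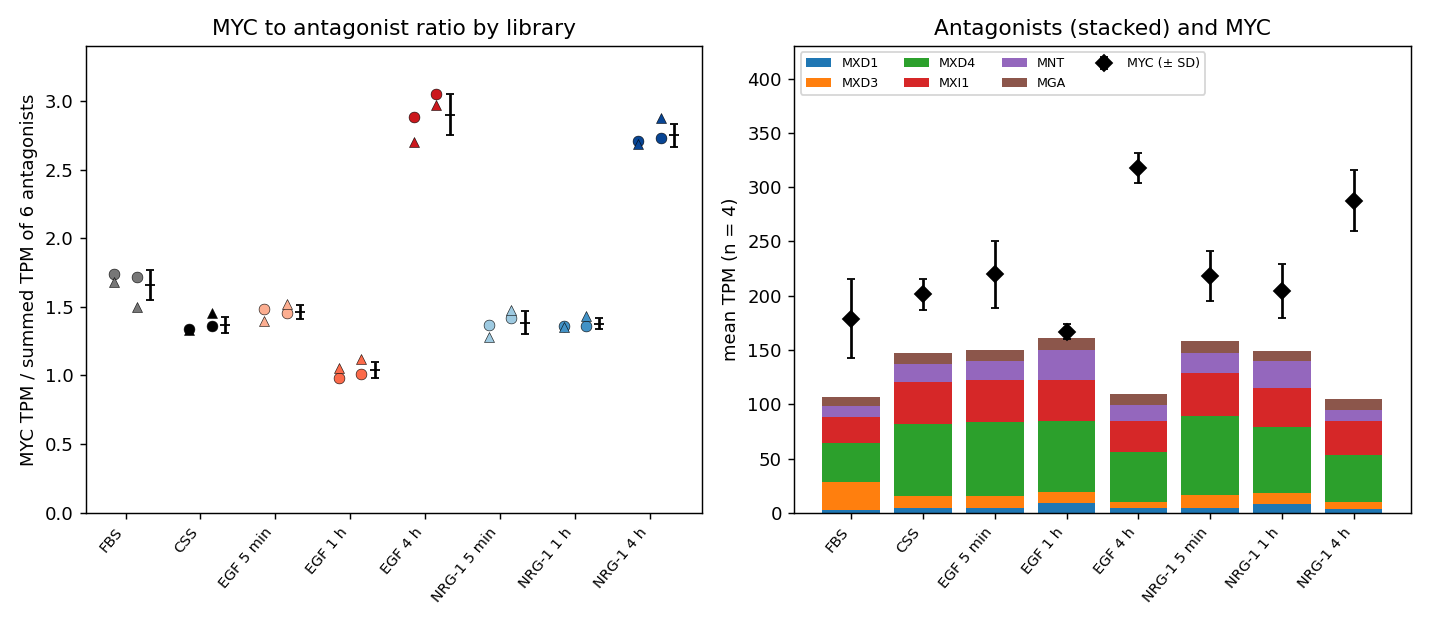
Left, *MYC* TPM divided by the summed TPM of the 6 antagonists (y axis) in each library of the 8 groups (x axis), with circles for batch 1, triangles for batch 2, and bars for mean ± SD; right, mean TPM of the antagonists (stacked) and of *MYC* (diamonds, ± SD, n = 4). The ratio is lowest at 1 hour of EGF (1.04) and highest at 4 hours of EGF (2.90) and NRG-1 (2.75), and the *MXD3* segment is widest in FBS.

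The wider network was read from lists of further partners, cofactors, regulators of MYC protein turnover, and known MYC targets. Each count below is of genes called at an adjusted *P* value below 0.05. It is to be read against the 49.2% of all genes called after 4 hours of EGF and 42.6% after 4 hours of NRG-1. After 4 hours of EGF, 2 of 4 partners tested, 7 of 12 cofactors, and 7 of 11 turnover regulators were called. After 4 hours of NRG-1 the numbers were 2, 7, and 6. For lists this short these numbers were close to the shares of all genes, and the difference was not tested. Genes named from the partner, cofactor, and turnover lists therefore show which genes moved, and not a change of a list as a whole. Of 5 further partners, *MYCN* had at most 1 count per library and was not tested. Of the other 4, *MLX*, the MAX-like partner of a parallel nutrient-sensing branch, was higher after 4 hours of EGF (log2 0.39, adjusted *P* = 0.000953) with ranges that overlapped CSS, and *MLXIPL*, which encodes the glucose-responsive factor ChREBP, was lower (log2 -0.40, adjusted *P* = 0.0203).

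Of 12 cofactors, 3 rose and 4 fell after 4 hours of either ligand. With EGF, *WDR5*, a chromatin scaffold that binds MYC, had the largest rise among those called (log2 0.31, adjusted *P* = 3.14e-06), followed by the helicase gene *RUVBL2* (log2 0.26, adjusted *P* = 7.68e-05). *BPTF*, a nucleosome remodeller subunit, fell the most (log2 -0.42, adjusted *P* = 0.0150), and *SIN3A*, which encodes the corepressor used by the MXD proteins, fell as well (log2 -0.17, adjusted *P* = 0.0223).

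Of 11 regulators of MYC protein turnover, 3 rose and 4 fell with EGF at 4 hours, and 2 rose and 4 fell with NRG-1. *USP36*, a nucleolar deubiquitinase that stabilizes MYC, rose by 0.65 on the log2 scale with EGF (adjusted *P* = 1.54e-05), and *PPP2CA*, the catalytic subunit of a phosphatase that promotes MYC removal, rose by 0.36 (adjusted *P* = 6.83e-05). *AURKA*, a mitotic kinase that also stabilizes MYC family proteins, fell by 0.34 (adjusted *P* = 0.000263), and *GSK3B*, a kinase that marks MYC for degradation, fell by 0.32 (adjusted *P* = 0.000692).

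Of 26 genes known to be raised by MYC, most of them for ribosome assembly, nucleotide or polyamine synthesis, 22 were higher after 4 hours of EGF and 22 after 4 hours of NRG-1. Their median log2 change was 0.52 and 0.44, compared with -0.02 and -0.01 over all genes tested. *SLC19A1*, a folate carrier, rose the most with EGF, from 38.4 ± 1.56 to 89.9 ± 10.5 CPM (SD, n = 4; log2 1.22, adjusted *P* = 5.90e-11). *RRP12*, which acts in ribosome export, rose from 51.4 ± 4.77 to 102 ± 10.5 CPM (log2 0.99, adjusted *P* = 1.42e-08).

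At 1 hour, when *MYC* was below its CSS level with EGF, 8 of the 26 were called higher with EGF, against 6.00% of all genes, and 4 with NRG-1, against 4.45%. The medians of the list were 0.13 and 0.14 on the log2 scale, compared with -0.01 and -0.00 over all genes. In FBS, where *MYC* did not differ from CSS beyond the spread, 18 of the 26 were higher, against 26.0% of all genes, with a median of 0.33. None of the 26 was called lower in these 3 comparisons or at 4 hours.

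Of 7 genes known to be repressed by MYC, 2 rose and 1 fell after 4 hours of EGF, and 3 rose and 1 fell after 4 hours of NRG-1. The largest rise was that of *CDKN2B*, the gene for the cell cycle inhibitor p15, from 2.27 ± 0.319 CPM in CSS to 20.7 ± 5.71 CPM with EGF (log2 3.17, adjusted *P* = 2.59e-15) and 13.8 ± 4.33 CPM with NRG-1 (log2 2.58, adjusted *P* = 3.07e-13). *CDKN1A*, the gene for p21, rose by 0.48 with EGF (adjusted *P* = 2.07e-05), with ranges that overlapped. *CDKN1B*, the gene for p27, fell from 116 ± 5.04 to 67.7 ± 1.28 CPM (log2 -0.77, adjusted *P* = 1.16e-13). At 1 hour, 4 of the 7 were higher with EGF, against 6.00% of all genes, and 3 were higher with NRG-1, against 4.45%, and none was called lower. *CDKN1B* was among them, with a log2 change of 0.67 for EGF (adjusted *P* = 8.29e-12) and 0.48 for NRG-1 (adjusted *P* = 1.50e-08), opposite in sign to its change at 4 hours. In FBS, 2 of the 7 were higher and 4 were lower than in CSS, against 26.0% and 26.8% of all genes.

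**Figure D4:**
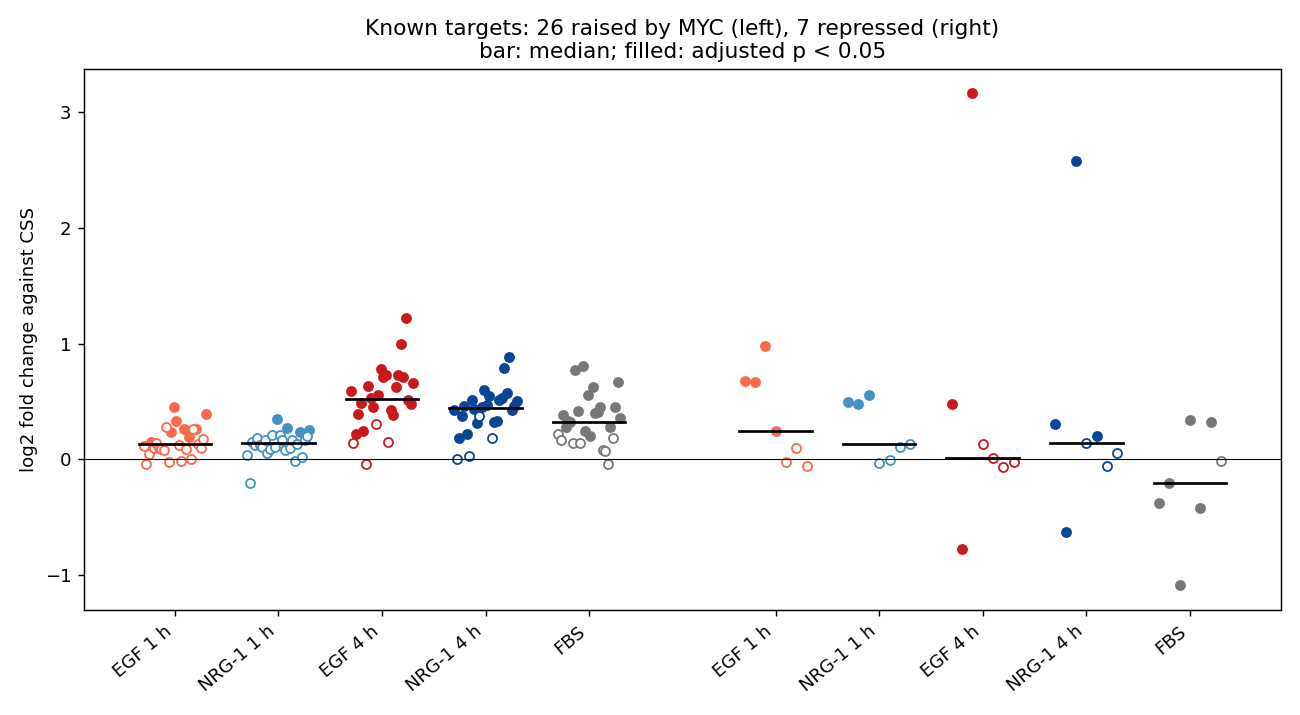
Log2 fold change against CSS (y axis) of genes known to be raised by MYC (left, 26 genes) or repressed by it (right, 7 genes) for each ligand and time and for FBS (x axis), with a point per gene, a bar at the median, and filled points for an adjusted *P* value below 0.05. The medians of the raised list are 0.13 and 0.14 at 1 hour, 0.52 and 0.44 at 4 hours, and 0.33 in FBS, and *CDKN2B* is the point at 3.17 among the repressed genes.

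Patterns across the 32 libraries were compared by Pearson's *r* on log2 CPM after batch means were removed. The points share groups and batches, so *r* is given as a description. Among the network genes, *MYC* had its most negative values with *MAX* (*r* = -0.84), *MXD3* (*r* = -0.54), and *MNT* (*r* = -0.52). *MXD4* and *MXI1* tracked each other most closely (*r* = 0.92), followed by *MXD1* and *MNT* (*r* = 0.87). *MXD3* had negative values with the other antagonists, from -0.38 with *MGA* to -0.15 with *MNT*.

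Among 12018 genes, the 5 whose pattern was most like that of *MYC* were *MOCS3* (*r* = 0.938), *FAM86C1* (*r* = 0.928), *KCNS3* (*r* = 0.925), *ZNF398* (*r* = 0.925), and *ISX* (*r* = 0.919). For *MXD3*, the antagonist with the widest span, they were *PSRC1* (*r* = 0.989), *CDKN2C* (*r* = 0.982), *BUB1B* (*r* = 0.981), *CDCA8* (*r* = 0.980), and *SGOL2* (*r* = 0.980). *PSRC1*, *BUB1B*, *CDCA8*, and *SGOL2* encode spindle, kinetochore, or chromosome cohesion proteins used in mitosis, and *CDKN2C* encodes a cell cycle inhibitor.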

How the data were processed

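The expected counts per gene were estimated by the authors with RSEM from polyadenylated, strand-specific RNA-seq reads, and the deposited TPM values come from the same program. The submitters' processing notes also name Trimmomatic 0.36, STAR 2.7.0f, and the build hg19. Every sample column was used, and 0 were left out. Expected counts were rounded, and a gene was tested if 3 or more libraries held 5 or more of its counts (16995 tested, 8503 not tested). All 32 libraries entered 1 edgeR 4.0.16 quasi-likelihood fit (R 4.3.3) with TMM factors, group, and batch, with Benjamini-Hochberg adjustment over all genes tested. The procedure was tested on simulated data with independent libraries and no batch effect. That simulation therefore does not cover the shared deviations between libraries given below. Alternatives used DESeq2 1.42.0, and limma 3.58.1 on log2(TPM + 1) or log2(TPM + 0.1) with at least 0.5 TPM in 3 libraries, which understates changes of low genes.

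Groups, batches, and replicate numbers were taken from the labels. Libraries with the same batch and replicate number deviated together (112 pairs between groups, *r* from 0.133 to 0.571). After batch means were removed, *r* was -0.0639 to 0.427, and 54 pairs exceeded 0.1. The labels give a batch and a replicate number, without saying whether libraries of the same number were handled together. The main fit holds the batch and not the replicate number, which entered as a block in an alternative. No library was a copy of another (chi-square per degree of freedom at least 6.50 in 48 within-group pairs).

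The members, the gene lists, and the tests were chosen with earlier results of these data known. From each list, up to 2 genes with the largest rise and up to 2 with the largest fall among those called after 4 hours of EGF are named, and for pattern likeness the 5 genes with the highest *r* where the mean log2 CPM (prior count 2) was 1 or more.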

Additional observations from a re-analysis of the deposited data

Results flagged for a closer look

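In 3 of the 72 combinations of network gene and group, 1 library stood far from the other 3, where chance gives about 3.6. *MNT* after 4 hours of EGF was at 51.1 CPM in the first library of batch 2 and at 38.3-40.3 CPM in the others. *MGA* after 4 hours of EGF was at 70.1 CPM in the second library of batch 2 and at 81.3-82.1 CPM in the others. *MGA* after 5 minutes of NRG-1 was at 54.2 CPM in the second library of batch 2 and at 77.7-81.8 CPM in the others.

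The response to the ligands differed in a direct test for 2 genes. *MYC* was lower after 1 hour of EGF than after 1 hour of NRG-1 (log2 -0.39, edgeR adjusted *P* = 1.77e-05). *MXD1* was higher after 4 hours of EGF than after 4 hours of NRG-1 (log2 0.32, edgeR adjusted *P* = 0.0124). Of 21 alternative settings, 17 called the difference of *MYC* and 15 called that of *MXD1*. Neither difference was called in batch 2 alone or in limma on TPM.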

How the results depend on the processing

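Between 4 hours of EGF and 4 hours of NRG-1, 1 network gene was called. The number was 3 with DESeq2 or the replicate block. It was 2 with DESeq2 size factors, with no filter, with at least 10 counts in every library, in batch 1 alone, and without the 8 libraries that are the second of batch 2, an alternative chosen after seeing the data. It was 0 in batch 2 alone (3 at an unadjusted *P* below 0.05) and in each of the 3 limma fits on TPM (2 unadjusted), and 0 to 2 when 1 library was left out: 0 without the second NRG-1 library of batch 1 and 2 without the first NRG-1 library of batch 2.

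Batch 2 alone gave 1 call instead of 4 for 1 hour of EGF, 1 instead of 3 for 1 hour of NRG-1, 4 instead of 7 for 4 hours of NRG-1, 0 instead of 1 between the ligands at 1 hour (1 unadjusted), 4 instead of 7 from 1 to 4 hours in each series, and 5 instead of 9 for 4 hours of EGF against FBS. Batch 1 alone, with as many libraries, gave 4, 2, and 6 calls in the first 3 of these comparisons, 1 between the ligands at 1 hour, 7 from 1 to 4 hours in each series, and 6 for 4 hours of EGF against FBS. The limma fits gave 2 calls for 1 hour of EGF, 1 for 1 hour of NRG-1, and 0 between the ligands at 1 hour (1 unadjusted). Limma with no filter gave 5 for 4 hours of EGF against FBS, and each limma fit gave 7 instead of 5 for FBS against CSS. The cause was not tested. The counts in this section, adjusted or unadjusted, are given without the share of all genes that passed in the same setting. They therefore do not tell a change among the network genes from a change among all genes. *MAX* between 4 hours of EGF and FBS was -0.13 and reversed to 0.00696 with log2(TPM + 1), with or without the filter, and 0.00717 with log2(TPM + 0.1). The median of all genes in this comparison was 0.0936 with log2(TPM + 1), 0.00359 with no filter, and 0.113 with log2(TPM + 0.1). TPM also moved the median of all genes between FBS and CSS to -0.16 (TPM + 1) or -0.19 (TPM + 0.1).

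With CPM in place of TPM, the log2 ratio of *MYC* to its antagonists relative to CSS was 0.38 in FBS, 0.96 after 4 hours of EGF, and 0.93 after 4 hours of NRG-1. On TPM, against the MXD genes alone, it was -0.29 after 1 hour of EGF, 1.17 after 4 hours of EGF, and 0.0894 after 1 hour of NRG-1. With the replicate block, *MGA* after 4 hours of EGF (0.17, adjusted *P* = 0.0470) and, between the ligands at 4 hours, *MNT* (0.45, adjusted *P* = 0.000241) and *MXI1* (-0.13, adjusted *P* = 0.0193) passed, and the block changed no other call of a network gene. With 1 library left out, 110 of the 112 counts of network genes called stayed within 1.5 times of the main value, and the 2 that moved are those given above.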
